A study of Mus musculus with 10 samples.

Results

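The collagen chain genes of the mouse were followed through 5 sorted lineages of the adult lung. The Negative lineage carried no label, and epithelial and erythroid markers were highest in it, as given below. Members were all genes whose Ensembl identifier maps to a symbol of the form Col, number, a, number. The tables analysed here hold 37 such genes among 14854, of 44 such symbols in the annotation; Col2a1, Col6a4, Col9a1, Col19a1, Col22a1, Col25a1 and Col26a1 were not among the rows analysed here. All 37 were kept for testing, as were 14177 genes in all, on the rule that 2 or more libraries reach a log2 value of 6. By class, 10 were fibrillar, 6 were collagen IV chains of basement membranes, 6 were FACIT collagens, 5 were beaded filament chains, 3 were transmembrane, 3 formed short-chain networks and 2 were multiplexins. Col7a1, the anchoring fibril chain, and Col28a1 stood alone.

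The study sorted cells by FACS and sequenced total RNA in 10 libraries, 2 for each lineage. The Axin2:Pdgfra, Axin2, Pdgfra and Negative lineages all came from the line Axin2CreERT2:tdT:PdgfraEGFP, in which a tamoxifen-inducible Cre made by Axin2-expressing cells switches on a red reporter and the Pdgfra locus drives EGFP. Axin2:Pdgfra cells carried both labels, Axin2 and Pdgfra cells 1 each, and Negative cells neither; the Negative libraries are numbered 0 and 2 and the others 1 and 2. Pdgfra library 1 is titled EGFP_1, for the reporter and not, as the other libraries are, for the lineage, and was placed in Pdgfra because its lineage label, GFP, is that of Pdgfra library 2. Wnt2 cells came from a separate line, Wnt2CreERT2:R26REFYP, so that line and lineage cannot be told apart there. The labels give the stage as adult and do not give an age in weeks, the tamoxifen schedule, the gates, or whether the libraries of a lineage stem from different animals. The p-values therefore rest on library-to-library spread alone, part of which may be technical. In Negative and in Wnt2 the 2 libraries differed in the sex-linked transcript Xist (values below), so the spread there is not technical alone. In the other lineages all of it may be technical.

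A collagen is a trimer of chains wound into a triple helix, and each chain has its own gene. Fibrillar collagens (types I, III and V) form the banded fibrils that give lung interstitium and vessel walls their tensile strength. Collagen IV builds the sheet-like network of basement membranes under epithelium and endothelium and around mural cells, either from chains α1 and α2 or, in specialised membranes such as those of the alveolus and the glomerulus, from α3, α4 and α5. Collagen VI forms beaded filaments beside the fibrils, FACIT collagens decorate fibril surfaces, and multiplexins and transmembrane collagens sit at the border between cell and matrix. In the lung, Col13a1 and Col14a1 are used to name classes of fibroblasts.

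The genes of collagen IV lie in head-to-head pairs. Whether the distance between the starts of a pair bears on its values was not tested. By RefSeq (GRCm38.p6) the start sites of Col4a1 and Col4a2 are 21 bases apart on chromosome 8, those of Col4a3 and Col4a4 are 72 bases apart on chromosome 1, and those of Col4a5 and Col4a6 are 1343 bases apart on chromosome X. The first sequence shown is the place where the first exons of Col4a1 and Col4a2 overlap, with the 22 shared bases in capitals (chr8:11312801-11312830, plus strand, 80.0% G and C). The second is the 71 bases between the start sites of Col4a4 and Col4a3 (chr1:82586850-82586920, plus strand, 69.0% G and C). For the interstitial collagens, the 250 bases before the start are shown for Col1a2 (chr6:4505368-4505617, plus strand, 62.0% G and C) and Col3a1 (chr1:45311288-45311537, plus strand, 35.2% G and C), whose values rose and fell together across the lineages. In these last 3 sequences capitals mark CCAAT or GGGCGG or TATAAA on either strand.
Col4a1 and Col4a2: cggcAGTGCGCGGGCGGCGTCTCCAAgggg
Col4a3 and Col4a4: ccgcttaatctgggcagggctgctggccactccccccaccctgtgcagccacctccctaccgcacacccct
Col1a2: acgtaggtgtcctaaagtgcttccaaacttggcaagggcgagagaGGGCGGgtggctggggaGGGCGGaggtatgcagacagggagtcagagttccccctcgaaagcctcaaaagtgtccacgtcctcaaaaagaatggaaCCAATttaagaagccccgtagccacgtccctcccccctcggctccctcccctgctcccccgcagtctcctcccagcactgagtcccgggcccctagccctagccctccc
Col3a1: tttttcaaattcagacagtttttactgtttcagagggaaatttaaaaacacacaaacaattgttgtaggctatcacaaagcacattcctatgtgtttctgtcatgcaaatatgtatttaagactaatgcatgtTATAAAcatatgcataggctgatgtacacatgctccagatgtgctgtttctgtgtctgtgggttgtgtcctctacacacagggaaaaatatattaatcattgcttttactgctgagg

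The Col1a2 stretch holds GGGCGG at 2 places and CCAAT at 1, and the Col3a1 stretch holds TATAAA at 1; the bases between Col4a3 and Col4a4 hold none of these letters. The 3 motifs share no overlap in these stretches. Windows of the same length were matched for 31 of the 37 collagen genes (33 windows). CCAAT was in 10 of the 33, GGGCGG in 20 and TATAAA in 5, which is 30.3%, 60.6% and 15.2%, beside 33.8%, 32.7% and 12.4% of 32851 windows of all genes. A match describes letters only.

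Each deposited value is a log2 level of a gene in a library, on a scale inferred from the values, with near-identical distributions in all 10 libraries. The values are not known to be corrected for gene length, so levels are compared for a gene across libraries and not between genes. The lowest value of a library was shared by 2.1% to 18.4% of genes, the most in Negative library 2, and depth is unknown. Spearman correlations were 0.778 to 0.929 within lineages (5 pairs) and 0.671 to 0.885 between lineages (40 pairs). Pdgfra, which carries the EGFP reporter, was at 14.91 and 15.21 in Axin2:Pdgfra, 14.64 and 14.92 in Pdgfra, 13.49 and 13 in Axin2, 12 and 13.34 in Negative, and 16.05 and 16.25 in Wnt2, so that it was highest in the lineage without the EGFP reporter. Axin2 overlapped between libraries with its label (9.54 to 12.04) and without it in that line (10.07 to 11.06). Xist was at 8.57 in Negative library 2 and 7.81 in Wnt2 library 2 and above 16 elsewhere, so these lineages each pair libraries that differ in sex-linked transcripts. In sorted bulk samples, fewer cells of a type and less RNA per cell cannot be told apart.

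Across the 5 lineages, 17 of the 37 collagen genes differed (45.9%; limma F-test, Benjamini-Hochberg adjusted p under 0.05), beside 8.2% of all genes tested. They were 4 fibrillar chains (Col1a1, Col1a2, Col3a1, Col5a1), 4 collagen IV chains (Col4a1 to Col4a4), 3 FACIT chains (Col12a1, Col14a1, Col20a1), 3 collagen VI chains (Col6a1 to Col6a3), and Col13a1, Col15a1 and Col8a1. By group mean, 8 of the 17 were highest in Axin2:Pdgfra, 5 in Negative, 2 in Pdgfra, 1 in Axin2 and 1 in Wnt2. The call held in each of the 10 fits that left out 1 library for 11 genes: Col1a1, Col1a2, Col3a1, Col5a1, Col4a1, Col4a2, Col4a3, Col14a1, Col6a2, Col6a3 and Col15a1. Variances moderated without a trend and without robust estimation left 2 of the 17, Col14a1 and Col4a3.

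**Figure D1:**
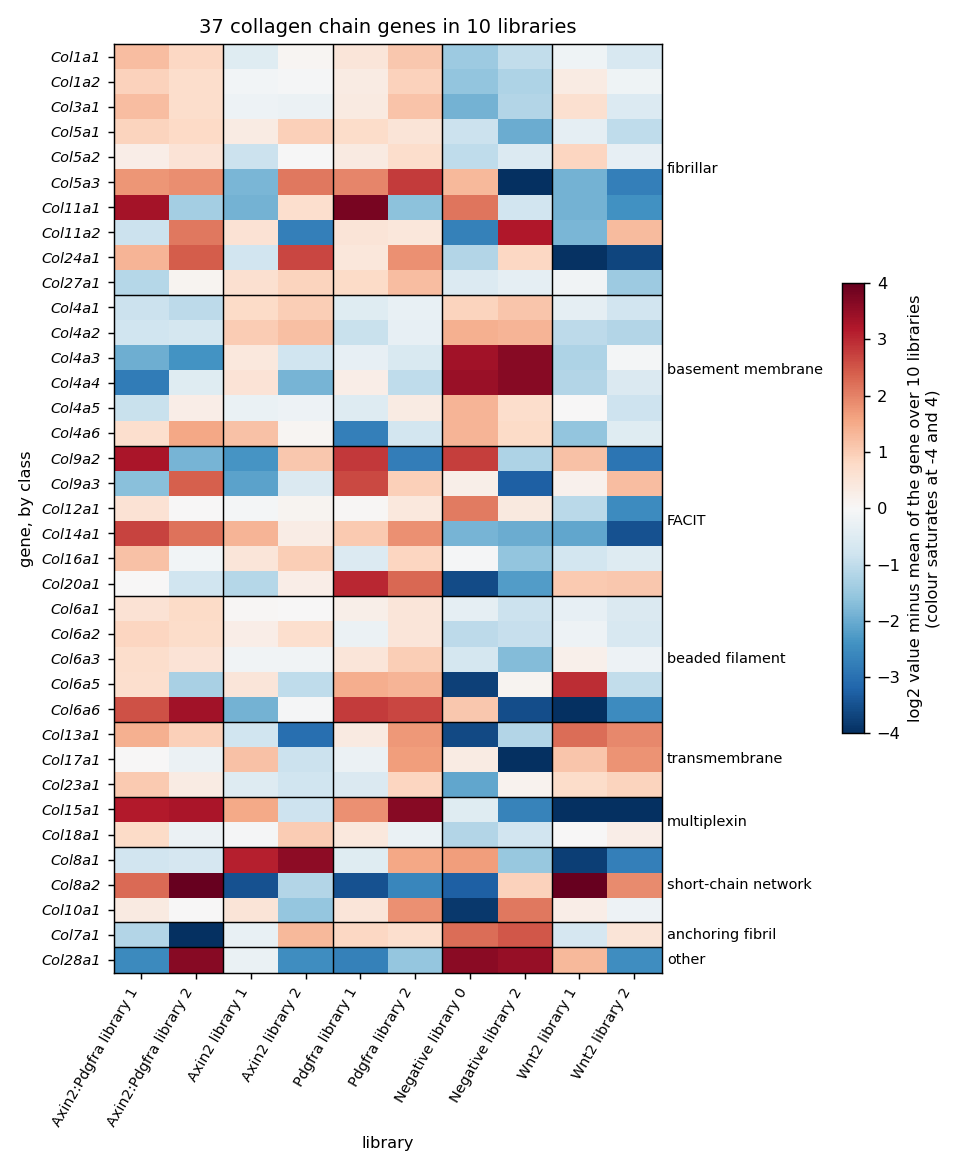
Each row is a collagen gene, grouped by class, and each column a library; colour is the log2 value minus the mean of that gene over the 10 libraries, saturating at -4 and 4. The rows of Col1a1, Col1a2, Col3a1, Col5a1 and Col6a1 to Col6a3 are blue in both Negative libraries, where Col4a3 and Col4a4 are the darkest red of the collagen IV rows; rows such as Col11a1, Col9a2 and Col28a1 differ between libraries of the same lineage.

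The Pdgfra label divided many of the collagen genes. In the 4 libraries with the label (Axin2:Pdgfra and Pdgfra) against the 4 without it from the same line (Axin2 and Negative), 10 collagen genes were higher and 4 lower at an adjusted p under 0.05 (limma), beside 3.55% and 2.93% of all genes (6.48% in either direction). The 10 higher were Col1a1, Col1a2, Col3a1, Col5a1, Col14a1, Col6a1, Col6a2, Col6a3, Col13a1 and Col15a1; the 4 lower were Col4a1, Col4a2, Col4a3 and Col4a4. The median log2 difference was 1.08 over the 37 genes and 0 over all genes. Values of the 4 labelled libraries all lay above the 4 others for 9 collagen genes (24.3%, beside 4.9% of all genes) and all below them for 2, Col4a1 and Col4a2 (5.41%, beside 3.96%). Variances moderated without a trend and without robust estimation left 2 of the 14 calls, Col4a2 and Col4a3, and none of the 10 higher. Without Pdgfra library 2 the count of 14 fell to 9.

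**Figure D2:**
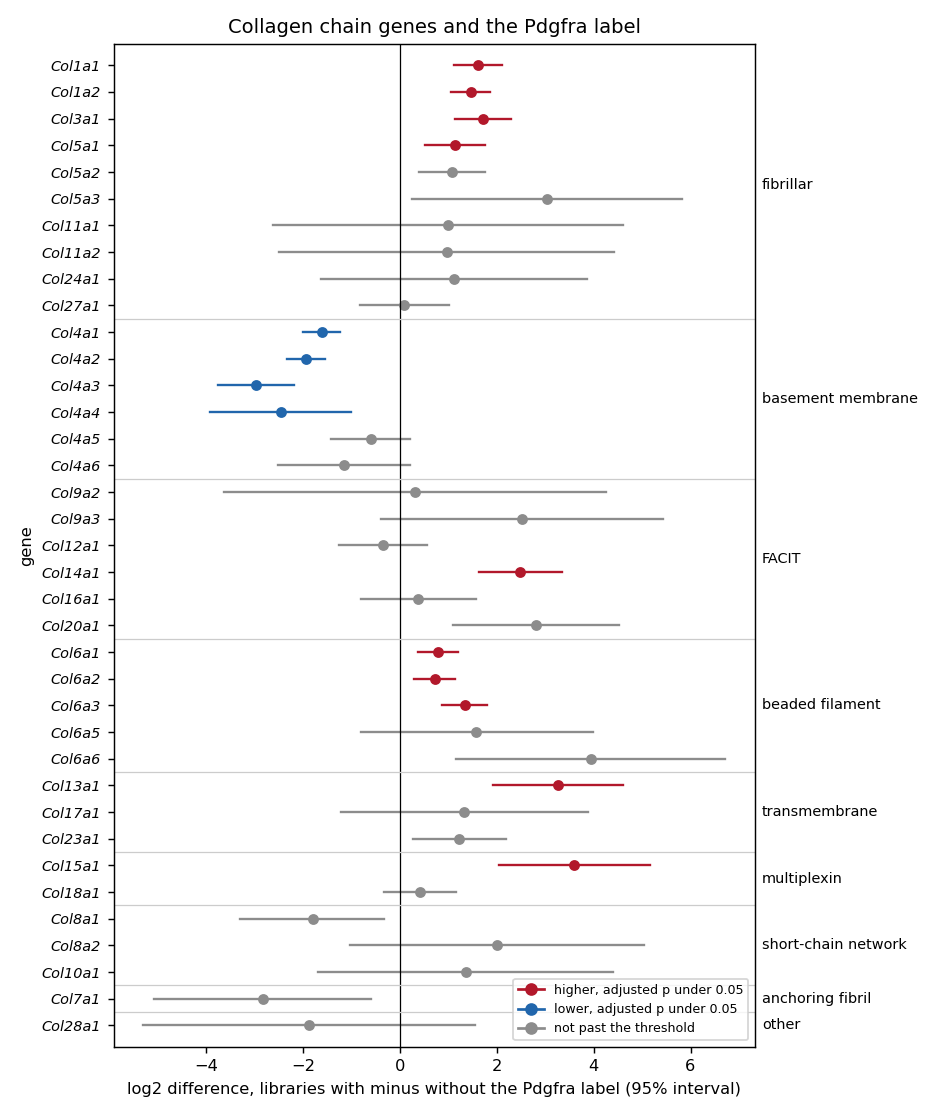
Points are log2 differences, libraries with minus libraries without the Pdgfra label within the Axin2CreERT2:tdT:PdgfraEGFP line, with 95% intervals, for the 37 collagen genes by class. The 10 genes higher at an adjusted p under 0.05 (red) are fibrillar, FACIT, beaded filament, transmembrane or multiplexin chains, and the 4 lower (blue) are collagen IV chains; all 6 collagen IV points lie below 0.

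Among fibrillar chains, Col1a1 (ENSMUSG00000001506) and Col1a2 (ENSMUSG00000029661) encode the chains of collagen I, the main fibril collagen. Col1a1 was at log2 values of 15.16 and 14.77 in Axin2:Pdgfra, 14.4 and 15.01 in Pdgfra, 13.44 and 14.02 in Axin2, 12.48 and 12.95 in Negative, and 13.76 and 13.3 in Wnt2. Col1a2 was at 15.52 and 15.3 in Axin2:Pdgfra, 14.95 and 15.53 in Pdgfra, 14.49 and 14.55 in Axin2, 13.04 and 13.37 in Negative, and 14.94 and 14.43 in Wnt2. For both genes every library with the Pdgfra label lay above every library without it in that line, and both Negative libraries lay below the other 8. The log2 difference with the label was 1.61 ± 0.23 (SE) for Col1a1 (limma adjusted p = 0.000857) and 1.46 ± 0.19 for Col1a2 (adjusted p = 0.000449), 3.06-fold and 2.75-fold. Within a library, Col1a1 minus Col1a2 stayed between -1.18 and -0.36, a span of 0.82 beside spans of 2.68 and 2.49 for the genes themselves, and the lowest values were those of Wnt2 (-1.18 and -1.13) and Axin2 library 1 (-1.05).

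Col3a1 (ENSMUSG00000026043), the chain of collagen III in compliant tissue such as vessel walls and alveolar septa, followed the same order. Its values were 15.95 and 15.41 in Axin2:Pdgfra, 15.09 and 15.85 in Pdgfra, 14.52 and 14.5 in Axin2, 12.84 and 13.57 in Negative, and 15.35 and 14.16 in Wnt2. The libraries with and without the label did not overlap, and the Wnt2 libraries straddled the Axin2 values. The difference with the label was 1.72 ± 0.27 (adjusted p = 0.00153), 3.29-fold, and it held whichever library was left out.

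Collagen V chains join collagen I fibrils and limit their width. Col5a1 (ENSMUSG00000026837) was at 14.01 and 13.89 in Axin2:Pdgfra, 13.85 and 13.64 in Pdgfra, 13.43 and 14.05 in Axin2, 12.24 and 11.12 in Negative, and 12.76 and 12.09 in Wnt2. Unlike for Col1a1, the Axin2 libraries of Col5a1 lay on either side of the 4 Pdgfra-labelled ones, and the Negative and Wnt2 libraries lay below all of these. The label difference of Col5a1, 1.14 ± 0.29 (adjusted p = 0.0277), held in 3 of the 10 fits that left out a library, those without Negative library 0, Wnt2 library 1 or Wnt2 library 2, with adjusted p up to 0.126. Its partner Col5a2 was at 12.86 and 13.13, 12.96 and 13.3, 11.74 and 12.57, 11.58 and 12.04, and 13.46 and 12.25 in the same order of lineages, a label difference of 1.08 ± 0.32 that missed the threshold (adjusted p = 0.0586) although the groups did not overlap. The remaining chain, Col5a3, was at 9.78 and 9.86, 9.94 and 10.81, 6.17 and 10.11, 9.29 and 2.67, and 6.12 and 5.29, where 2.67 is the lowest value of Negative library 2; its difference of 3.04 missed the threshold. Within a library Col5a1 minus Col5a2 ran from -0.92 in Negative library 2 to 1.69 in Axin2 library 1, so these partner chains moved apart more than the chains of collagen I.

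The other fibrillar members were Col27a1, at 9.51 to 12.19, and Col11a1, Col11a2 and Col24a1, at 1 to 8.17 with libraries of a lineage up to several log2 units apart. None of these 4 passed the threshold in the F-test or in any comparison. Col11a1 was listed at the lowest value in 4 libraries and Col11a2 in 2.

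**Figure D3:**
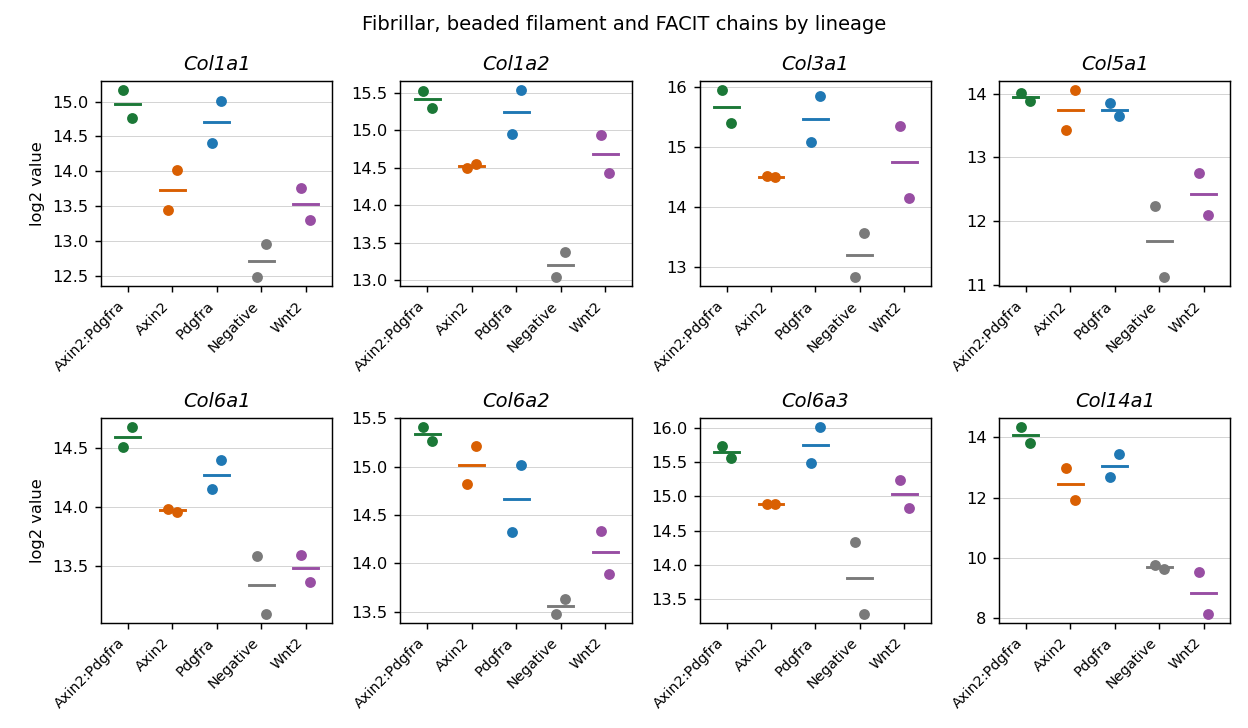
Points are log2 values of single libraries and lines are means of the 2 libraries of a lineage, for 4 fibrillar, 3 beaded filament and 1 FACIT chain; each panel has its own axis. Col1a1, Col1a2 and Col3a1 are higher in all 4 libraries with the Pdgfra label than in the 4 without it of the same line, while for Col6a2 the Axin2 libraries lie among the labelled ones, for Col5a1 they lie 1 below and 1 above them, and Col14a1 is low in Negative and Wnt2.

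Collagen VI is assembled from α1, α2 and a larger, variable chain, α3, α4, α5 or α6. The gene of α4, Col6a4, was not among the rows analysed here. Col6a1 (ENSMUSG00000001119) was at 14.51 and 14.68 in Axin2:Pdgfra, 14.15 and 14.4 in Pdgfra, 13.98 and 13.96 in Axin2, 13.58 and 13.09 in Negative, and 13.59 and 13.36 in Wnt2. Col6a2 (ENSMUSG00000020241) was at 15.41 and 15.27, 14.32 and 15.02, 14.82 and 15.21, 13.48 and 13.63, and 14.34 and 13.89 in the same order. Col6a3 (ENSMUSG00000048126) was at 15.73 and 15.56, 15.49 and 16.01, 14.89 and 14.89, 14.33 and 13.29, and 15.24 and 14.83. All 3 had their lowest group mean in Negative, but the Axin2 libraries were nearer the top for Col6a2 than for Col6a1 or Col6a3. The label difference was largest for Col6a3 (1.35 ± 0.22, adjusted p = 0.0017, held whichever library was left out). It was 0.78 ± 0.2 for Col6a1 (adjusted p = 0.0265, held in 3 of 10 fits, without Negative library 0, Wnt2 library 1 or Wnt2 library 2; up to 0.0981; the F-test call, at 0.0335, held in 2 of 10, without either Negative library) and 0.72 ± 0.2 for Col6a2 (adjusted p = 0.046, held in 1 of 10, without Pdgfra library 1; up to 0.178). Of the alternatives to Col6a3, Col6a5 was at 8.72 and 6.74, 9.49 and 9.42, 8.54 and 7.03, 4.32 and 8.15, and 11.01 and 7.07, and Col6a6 at 8.76 and 9.56, 9.01 and 8.88, 4.32 and 6.15, 7.3 and 2.67, and 1.75 and 3.7. The 4 labelled libraries lay above the 4 others for Col6a6, whose difference of 3.94 ± 1.3 missed the threshold (adjusted p = 0.0936).

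FACIT collagens showed 3 different orders. Col14a1 (ENSMUSG00000022371), a chain used to name a class of lung fibroblasts, was at 14.34 and 13.8 in Axin2:Pdgfra, 12.67 and 13.45 in Pdgfra, 12.99 and 11.92 in Axin2, 9.76 and 9.63 in Negative, and 9.54 and 8.15 in Wnt2. Axin2:Pdgfra lay above the other 8 libraries and Wnt2 below them. It was the 1 fibril-associated chain higher with the Pdgfra label (2.49 ± 0.4, adjusted p = 0.0017, 5.61-fold). Col20a1 (ENSMUSG00000016356) was at 8.22 and 7.43, 11.24 and 10.53, 7.08 and 8.49, 4.64 and 5.97, and 9.26 and 9.31, so that both Pdgfra libraries were above the other 8 and both Negative libraries below. Col12a1 (ENSMUSG00000032332) was at 12.27 and 11.69, 11.74 and 12.1, 11.61 and 11.77, 13.75 and 12.06, and 10.59 and 9.16, close together in 3 lineages and low in both Wnt2 libraries. The F-test calls of Col12a1 (adjusted p = 0.0408) and Col20a1 (adjusted p = 0.0432) held in only 1 and 2 of the 10 fits with a library left out, those without Negative library 2 and, for Col20a1, also without Axin2:Pdgfra library 1. Col16a1 was at 8.48 to 11.23 and passed no test, nor did the cartilage-type chains Col9a2 and Col9a3, at 1 to 8.59, of which Col9a2 was listed at the lowest value in 4 libraries and Col9a3 in 1.

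Markers of fibroblast classes also differed with the Pdgfra label. Of 15 adventitial fibroblast markers 10 were higher with it, as were 7 of 14 alveolar fibroblast markers (beside 3.55% of all genes), while 12 of 15 pericyte markers were lower (beside 2.93%). The median log2 value of the adventitial list was 13.12 to 13.84 in Axin2:Pdgfra, 12.2 to 13.03 in Pdgfra, 11.35 to 11.7 in Axin2, 10.18 to 10.45 in Negative and 9.69 to 10.61 in Wnt2. The sums of their log2 values ran from 201.5 to 204.6 in Axin2:Pdgfra, 184.1 to 192.6 in Pdgfra, 163.1 to 166.6 in Axin2, 143.4 to 152.6 in Negative and 131.8 to 139.3 in Wnt2. At most 2 of the 15 were listed at the lowest value in a library. The adventitial list was thus lowest in Wnt2 by its sums, whereas Col1a1, Col1a2 and Col3a1 had higher values in both Wnt2 libraries than in either Negative library. The median of the alveolar list was 13.77 to 13.8 in Axin2:Pdgfra, 13.32 to 13.6 in Pdgfra, 13.48 to 13.58 in Wnt2, 12.62 to 13.1 in Axin2 and 12.1 to 12.48 in Negative. Its log2 values summed to 190.9 to 193 in Axin2:Pdgfra, 180.8 to 184.7 in Pdgfra, 185.1 to 190.8 in Wnt2, 170.5 to 172.3 in Axin2 and 167.3 to 169.3 in Negative. In this list, none of whose members was at the lowest value in a library, Negative was lowest and Wnt2 lay within the range of the Pdgfra-labelled lineages. The part of either list in the collagen differences was not tested.

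Of the 6 collagen IV chains, 4 (Col4a1 to Col4a4) moved in the opposite direction. Col4a1 (ENSMUSG00000031502) and Col4a2 (ENSMUSG00000031503) encode the chains of the network found in nearly all basement membranes. Col4a1 was at 13.67 and 13.5 in Axin2:Pdgfra, 14.05 and 14.24 in Pdgfra, 15.3 and 15.53 in Axin2, 15.43 and 15.66 in Negative, and 14.19 and 13.78 in Wnt2. Col4a2 was at 13.62 and 13.73, 13.54 and 14.1, 15.45 and 15.64, 15.85 and 15.8, and 13.4 and 13.26 in the same order. For both genes the 4 Axin2 and Negative libraries lay above the other 6, with a gap of more than 1 log2 unit. With the Pdgfra label Col4a1 was lower by 1.61 (log2 difference -1.61 ± 0.17, adjusted p = 8.71e-05, 3.05-fold) and Col4a2 differed by -1.94 ± 0.18 (adjusted p = 4.33e-05, 3.83-fold), and both calls held whichever library was left out. These genes kept close to each other: Col4a1 minus Col4a2 within a library ran from -0.42 to 0.79, with the 2 highest values, 0.79 and 0.52, in Wnt2.

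Col4a3 (ENSMUSG00000079465) and Col4a4 (ENSMUSG00000067158), the chains of the α3α4α5 network, were high in Negative alone. Col4a3 was at 9.97 and 9.56 in Axin2:Pdgfra, 11.62 and 11.32 in Pdgfra, 12.35 and 11.13 in Axin2, 15.3 and 15.56 in Negative, and 10.68 and 11.85 in Wnt2. Col4a4 was at 6.96 and 9.27, 10.04 and 8.76, 10.32 and 7.91, 13.23 and 13.4, and 8.6 and 9.19. Both Negative libraries stood above the other 8 for both genes, by about 3 log2 units. Against the 3 labelled lineages of the same line the difference was 4.44 ± 0.42 for Col4a3 (adjusted p = 0.000216) and 4.44 ± 0.79 for Col4a4 (adjusted p = 0.00544; 0.0624 without Negative library 2). The F-test call of Col4a4 (adjusted p = 0.0195) likewise ended without either Negative library, reaching an adjusted p of 0.119. Across the Pdgfra label, where Negative is 1 of the 2 lineages without it, these genes also differed (-2.97 ± 0.36 for Col4a3 and -2.46 ± 0.68 for Col4a4, adjusted p = 0.000235 and 0.0459). The Col4a4 call held in 2 of 10 fits that left out a library, those without Axin2:Pdgfra library 2 or Axin2 library 2 (adjusted p up to 0.191).

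Within a library, Col4a3 minus Col4a1 was -0.13 and -0.1 in Negative and between -4.4 and -1.92 in the other 8 libraries. Col4a4 minus Col4a1 was -2.2 and -2.26 in Negative and between -7.62 and -4.02 elsewhere. The change in these differences between libraries, which a fixed length factor leaves untouched, set Negative apart from Axin2 while the values of Col4a1 were close in both. Col4a3 minus Col4a4 was 2.07 and 2.16 in Negative and between 0.28 and 3.22 elsewhere.

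Col4a5, the partner of Col4a3 and Col4a4, was at 10.76 and 11.93 in Axin2:Pdgfra, 11.11 and 11.97 in Pdgfra, 11.39 and 11.45 in Axin2, 13.02 and 12.34 in Negative, and 11.68 and 10.81 in Wnt2. Both Negative libraries were above the other 8, but the difference from the 3 labelled lineages, 1.24 ± 0.44, missed the threshold (adjusted p = 0.131). Col4a6 was at 10.17 and 11.05, 6.76 and 8.78, 10.67 and 9.58, 10.88 and 10.26, and 7.93 and 9.02. Its highest group mean was 10.61, in Axin2:Pdgfra, its lowest libraries were in Pdgfra and Wnt2, and Col4a5 minus Col4a6 ran from 0.6 to 4.35 within a library, the widest span (3.76) of the 3 pairs. Neither Col4a5 nor Col4a6 passed the threshold in the F-test or in any comparison.

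**Figure D4:**
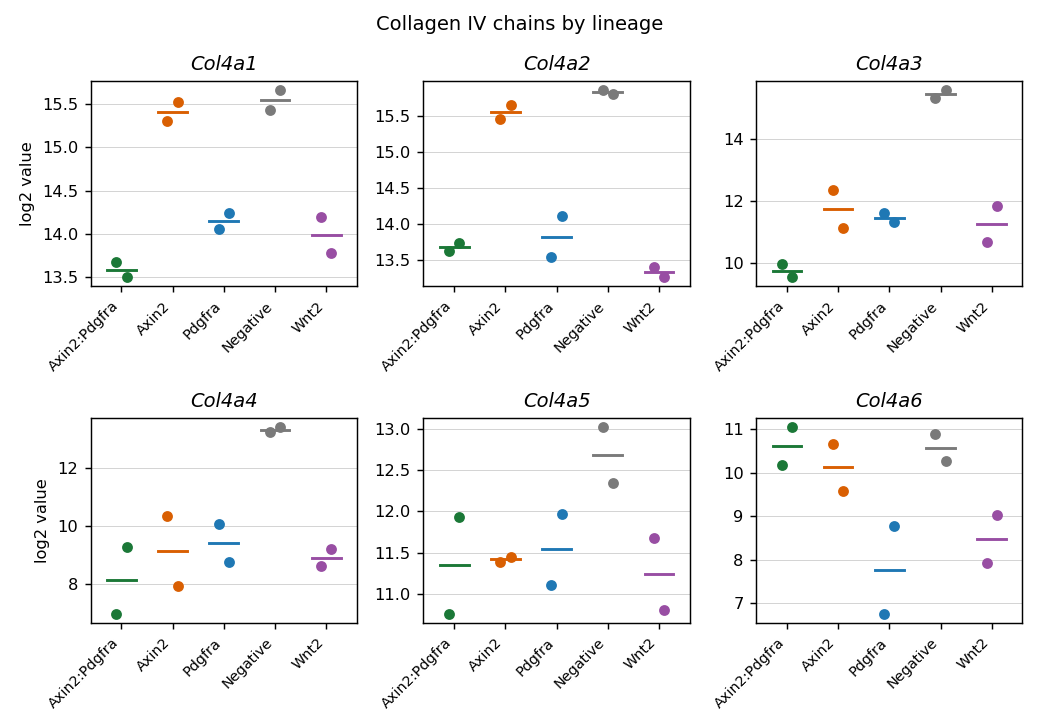
Points are log2 values of single libraries and lines are means of the 2 libraries of a lineage for the 6 collagen IV chains; each panel has its own axis. Col4a1 and Col4a2 are high in Axin2 and Negative, whereas Col4a3 and Col4a4 are high in Negative alone.

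Markers of several other cell types also differed between lineages that differ in collagen IV. Epithelial markers had a library median of 12.61 to 13.28 in Negative and 8.5 to 11.5 in the other libraries. Their log2 values summed to 252.4 to 255.6 in Negative, 205.7 to 219.1 in Pdgfra, 186.7 to 208.7 in Axin2, 177.8 to 183.8 in Axin2:Pdgfra and 170.8 to 198.3 in Wnt2. Of the 20, 10 were higher in Negative than in the 3 labelled lineages, beside 1.92% of all genes. The type 1 alveolar cell marker Ager was at 15.77 and 15.32 in Negative and 10.54 to 12.97 in the other 8 libraries. Both Negative libraries thus lay above the other 8, as for Col4a3 and for 5.83% of all genes. Other epithelial markers, such as Sftpa1, Sftpc and Scgb1a1, were not among the 10 higher in Negative. Pericyte markers had a library median of 13.61 to 13.96 in Axin2, 11.9 to 13.14 in Negative, 10.28 to 10.79 in Axin2:Pdgfra, 10.38 to 10.92 in Pdgfra and 8.51 to 9 in Wnt2, with sums of 205.8 to 209.5, 173.7 to 192, 140.4 to 145.6, 153.4 to 157 and 123.1 to 133.7. Mesothelial markers, of which 6 of 9 listed were in the tables, had medians of 10.09 to 10.2 in Axin2, 9.42 to 10.82 in Negative, 6.27 to 8.3 in Pdgfra, 5.24 to 6.09 in Axin2:Pdgfra and 4.28 to 4.39 in Wnt2, with sums of 61.1 to 62.3, 57.8 to 65.3, 43.2 to 46.4, 38.4 to 39.7 and 27 to 30.2. Of these 6, 4 were lower with the Pdgfra label (Gpm6a, Krt19, Lrrn4 and Upk3b) and 1 was higher (Upk1b), beside 2.93% and 3.55% of all genes. Schwann cell markers, 5 of 8 in the tables, had medians of 6.17 to 8.3 in Axin2, 7.3 to 8.59 in Negative and 1 to 4.93 in the other lineages, with sums of 27.6 to 33.8, 31.8 to 38.8 and 14.7 to 22.8. Among these 5, Sox10, a defining gene of that lineage, was the 1 lower with the label, beside 2.93% of all genes. Sox10 was listed at the lowest value in 5 libraries, none of them Axin2 or Negative. Endothelial markers had medians of 11.5 to 13.06 in Negative, 12.49 to 12.53 in Pdgfra and 10.04 to 11.52 in the other lineages, with sums of 174.4 to 191.8, 179.3 to 180.4 and 144.9 to 170. The pericyte, mesothelial and Schwann cell lists were thus higher by their medians in Axin2 and Negative, where Col4a1 and Col4a2 were high, and the epithelial list in Negative, where Col4a3 and Col4a4 were high. By its medians the endothelial list did not follow either pair. Its Pdgfra medians lay within the range of the Negative ones and its Axin2 medians did not exceed 11.52. Of its 15 genes, 2 (Eng and Esam) were lower with the Pdgfra label and 0 higher, beside 2.93% and 3.55% of all genes. Flt1 was higher in Negative than in the 3 labelled lineages, 1 of 15 beside 1.92%. Smooth muscle markers had medians of 13.55 to 13.72 in Axin2, 11.13 to 11.8 in Negative and 10.58 to 11.56 in Axin2:Pdgfra. With the Pdgfra label 5 of these 14 were lower and 1 higher, and 8 of the 20 epithelial markers were lower and 0 higher. These stand beside 2.93% and 3.55% of all genes. At most 1 of the 20 epithelial markers, 1 of the 6 mesothelial and 3 of the 5 Schwann cell markers, and 0 of the 15 pericyte and 15 endothelial ones, were listed at the lowest value in any library. The part of these cell types in the collagen IV values was not tested.

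Among the remaining classes, Col13a1 (ENSMUSG00000058806), a transmembrane collagen whose transcript marks alveolar fibroblasts, was at 11.89 and 11.4 in Axin2:Pdgfra, 10.82 and 12.19 in Pdgfra, 9.66 and 7.43 in Axin2, 6.85 and 9.28 in Negative, and 12.7 and 12.36 in Wnt2. With the label it was 3.27 ± 0.63 higher (adjusted p = 0.00569, 9.66-fold), a call that held whichever library was left out, while its F-test call (adjusted p = 0.0118) ended without Wnt2 library 1 (0.0537). Wnt2 held the highest values of all, but the difference from the other 4 lineages, 2.59 ± 0.7, missed the threshold (adjusted p = 0.0757). The other transmembrane chains, Col17a1 at 2.67 to 9.23 and Col23a1 at 10.21 to 13.34, passed no test, and Col17a1 was listed at the lowest value of Negative library 2.

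Col15a1 (ENSMUSG00000028339), a multiplexin at the basement membrane zone, was at 12.51 and 12.62 in Axin2:Pdgfra, 11.19 and 12.98 in Pdgfra, 10.85 and 8.52 in Axin2, 8.86 and 6.68 in Negative, and 4.74 and 4.55 in Wnt2. The order ran from the Pdgfra-labelled lineages through Axin2 and Negative to Wnt2, with overlap only between neighbours. The label difference was 3.6 ± 0.73 (adjusted p = 0.00827; 0.068 without Pdgfra library 2). Its relative Col18a1, the source of endostatin, was at 10.87 to 13.07; both Negative libraries lay below the other 8, with no comparison past the threshold.

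Col8a1 (ENSMUSG00000068196), a short-chain network collagen of vessel walls, was at 13.14 and 13.6 in Axin2, 9.25 and 9.36 in Axin2:Pdgfra, 9.55 and 11.56 in Pdgfra, 11.7 and 8.49 in Negative, and 6.24 and 7.3 in Wnt2. It was the 1 member of the 37 whose Axin2 libraries both exceeded the other 8 (2.7%, beside 5.2% of all genes). Its partner Col8a2 was ordered otherwise, at 1.55 and 3.87 in Axin2, 7.32 and 9.87 in Axin2:Pdgfra, 1.55 and 2.45 in Pdgfra, 1.79 and 5.97 in Negative, and 9.21 and 6.94 in Wnt2, with 3 libraries at their lowest value and no test passed (F-test adjusted p = 0.0982). The F-test call of Col8a1 (adjusted p = 0.0079) ended without Axin2 library 2 (0.0712), and smooth muscle markers were also high in Axin2 (library medians 13.55 to 13.72, beside 8.88 to 11.8 in the other libraries; sums 180.8 to 183 beside 111.2 to 158.2). Against Axin2, Axin2:Pdgfra had 4 of these 14 markers lower and 1, Hhip, higher, beside 1.38% and 0.924% of all genes. Between Axin2 and Negative 0 of the 14 differed, beside 0.6% of all genes. The part of these markers was not tested. Col10a1, Col7a1 and Col28a1 were at 1.55 to 10.45 and passed no test, and Col10a1 in Negative library 0 and Col7a1 in Axin2:Pdgfra library 2 were listed at the lowest value. Both Negative libraries held the highest Col7a1 values, 10.19 and 10.45, and Col28a1 was listed at the lowest value in 3 libraries.

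**Figure D5:**
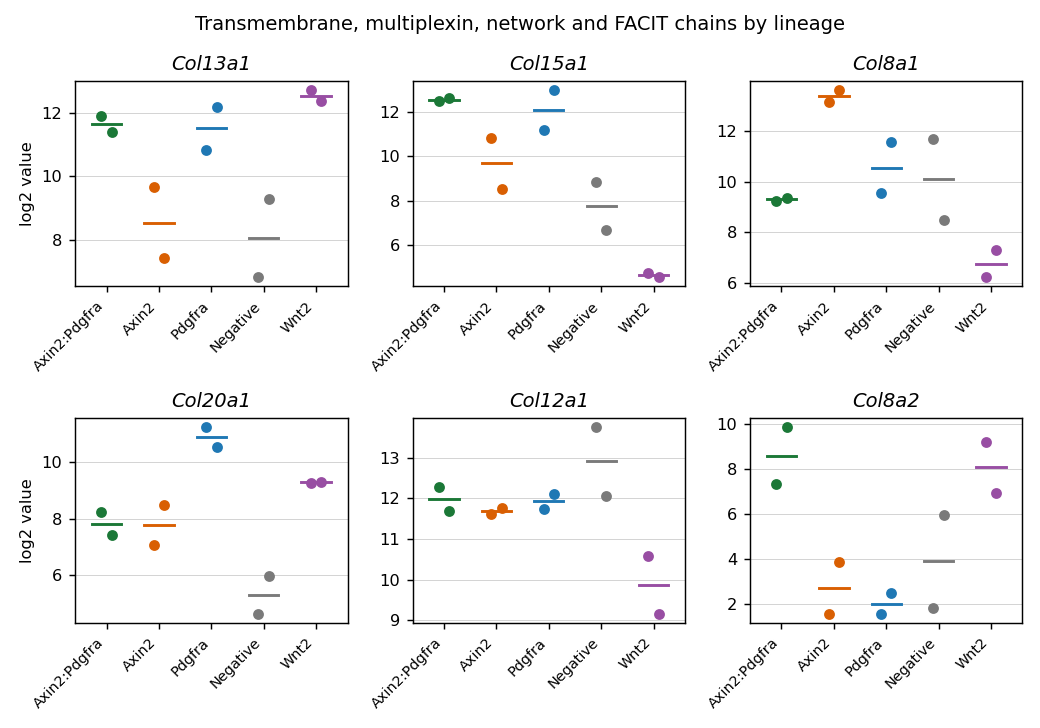
Points are log2 values of single libraries and lines are means of the 2 libraries of a lineage for 6 chains of the smaller classes and FACITs; each panel has its own axis. Col8a1 is highest in Axin2, Col20a1 in Pdgfra and Col13a1 in Wnt2, and Col15a1 is lowest in Wnt2.

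Counted by libraries alone, with no test, Negative stood out most among the 5 lineages. Both Negative libraries lay above the other 8 for 5 collagen genes (Col4a2, Col4a3, Col4a4, Col4a5 and Col7a1; 13.5%, beside 5.83% of all genes) and below them for 7 (Col1a1, Col1a2, Col3a1, Col20a1, Col6a2, Col6a3 and Col18a1; 18.9%, beside 5.16%). Wnt2 lay above the rest for Col13a1 alone (2.7%, beside 5.47%) and below for 6 genes (16.2%, beside 4.11%). Axin2:Pdgfra lay above for Col14a1, Col6a1 and Col6a2 (8.11%, beside 4.34%) and below for Col4a1, Col4a3 and Col7a1 (8.11%, beside 3.73%). Pdgfra lay above for Col20a1 alone (2.7%, beside 2.79%) and below for 0 genes (beside 3.07%), and Axin2 lay below for 0 (beside 3.6%).

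The label effect was also read in its single steps. Against Negative, 12 collagen genes differed in Pdgfra (limma, adjusted p under 0.05), 8 higher and 4 lower, beside 2.03% and 0.875% of all genes (2.91% in either direction). Those higher were Col1a1, Col1a2, Col3a1, Col5a1, Col14a1, Col20a1, Col6a3 and Col15a1, by 1.94 (Col6a3) to 5.58 (Col20a1) log2 units, and those lower were Col4a1 to Col4a4, by -1.39 (Col4a1) to -3.96 (Col4a3). The count was 7 without Pdgfra library 1 and 3 without Pdgfra library 2. From Axin2 to Axin2:Pdgfra, 3 genes were lower and 0 higher, beside 1.38% and 0.924% of all genes (2.3% in either direction): Col4a1 (-1.83 ± 0.25, adjusted p = 0.00175), Col4a2 (-1.87 ± 0.25, adjusted p = 0.00179) and Col8a1 (-4.06 ± 0.98, adjusted p = 0.0468). All 3 calls ended without Axin2 library 2, that of Col8a1 held in 2 of the 10 fits with a library left out (those without either Negative library), and the count was 5 without either Negative library. The interstitial collagens did not pass in that step, at 1.23 ± 0.33 for Col1a1 (adjusted p = 0.0697), 0.89 ± 0.27 for Col1a2 (0.116) and 1.17 ± 0.38 for Col3a1 (0.144).

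Whether the Pdgfra label went with different changes in cells with and without the Axin2 label was tested as an interaction. It was past the threshold for 0 collagen genes and 0 of all genes (limma), with 11 of 37 and 9.14% at an unadjusted p under 0.05. Between Axin2:Pdgfra and Pdgfra, 0 collagen genes differed (0.0423% of all genes did), with 8 of 37 at an unadjusted p under 0.05, beside 12.7% of all genes.

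The Axin2 label went with fewer collagen genes. In the 4 libraries with it against the 4 without it, Col14a1 (1.89 ± 0.4, limma adjusted p = 0.0319) and Col6a2 (1.07 ± 0.2, adjusted p = 0.0203) were higher and Col4a3 was lower (-2.7 ± 0.36, adjusted p = 0.00465), 3 of 37 beside 1.64% of all genes (0.501% higher and 1.14% lower). Negative is 1 of the 2 lineages without this label. Group means of Col4a3 were 9.76 in Axin2:Pdgfra, 11.74 in Axin2, 11.47 in Pdgfra and 15.43 in Negative, so Axin2 was not below Pdgfra. Those of Col14a1 were 14.07, 12.46, 13.06 and 9.7, so Axin2 was not above Pdgfra. The calls held in 3 of 10 fits with a library left out for Col14a1, 6 for Col6a2 and 9 for Col4a3. The count was 0 without Pdgfra library 1, the library titled EGFP_1, 1 without Axin2 library 2 and 5 without Negative library 0. Against Negative alone, Axin2 cells were higher for Col1a2 (1.31 ± 0.27), Col5a1 (2.06 ± 0.4), Col14a1 (2.76 ± 0.56) and Col6a2 (1.46 ± 0.28) and lower for Col4a3 (-3.69 ± 0.51), 5 of 37 beside 0.6% of all genes, with adjusted p from 0.00863 to 0.0488. With each library left out in turn, the call of Col1a2 held in 0 of 10 fits (adjusted p up to 0.3), that of Col5a1 in 2, Col14a1 in 3, Col6a2 in 5 and Col4a3 in 8. The count of collagen genes called, which can include others than these 5, was 0 without Axin2 library 2 or Negative library 2. It was 1 without Axin2:Pdgfra library 2 or Axin2 library 1, 2 without Axin2:Pdgfra library 1, Pdgfra library 1 or Pdgfra library 2, and 3 without Wnt2 library 1. With a shared pool of Negative libraries, these comparisons are not independent of each other.

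Negative cells, set against the 3 labelled lineages of their line, had 4 collagen genes higher and 10 lower, beside 1.92% and 2.7% of all genes (4.62% in either direction). Higher were the collagen IV chains Col4a1 (1.16 ± 0.2), Col4a2 (1.48 ± 0.21), Col4a3 and Col4a4. Lower were Col1a1 (-1.75 ± 0.27), Col1a2 (-1.85 ± 0.22), Col3a1 (-2.02 ± 0.31), Col5a1 (-2.13 ± 0.33), Col14a1 (-3.5 ± 0.46), Col20a1 (-3.53 ± 0.93), Col6a1 (-0.95 ± 0.23), Col6a2 (-1.45 ± 0.23), Col6a3 (-1.62 ± 0.25) and Col15a1 (-3.68 ± 0.84). Of these 14, 10 held whichever library was left out; Col15a1, Col20a1, Col6a1 and Col4a4 did not. Without Negative library 2 the adjusted p of Col15a1 reached 0.221 and that of Col6a1 reached 0.212. Within a library, Col3a1 minus Col4a1 was 2.27 and 1.91 in Axin2:Pdgfra, 1.03 and 1.61 in Pdgfra, 1.17 and 0.38 in Wnt2, -0.78 and -1.03 in Axin2, and -2.59 and -2.09 in Negative. Negative libraries also held the highest erythroid markers (library medians 13.03 and 13.96, sums 66.6 and 70, beside sums of 19.2 to 43.7 elsewhere), whose part was not tested.

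Wnt2 cells had 5 collagen genes lower than the mean of the other 4 lineages and 0 higher (limma, adjusted p under 0.05), beside 1.44% and 0.719% of all genes. They were Col15a1 (-5.88 ± 0.82, adjusted p = 0.00172), Col14a1 (-3.47 ± 0.45, adjusted p = 0.00105), Col8a1 (-4.06 ± 0.78, adjusted p = 0.0132), Col12a1 (-2.25 ± 0.48, adjusted p = 0.0241) and Col4a2 (-1.39 ± 0.2, adjusted p = 0.00216). For all 5, both Wnt2 libraries lay below the other 8, as they did for Col24a1, which was not called. Only the Col14a1 and Col15a1 calls held whichever library was left out; the count was 3 without Wnt2 library 1 and 2 without Wnt2 library 2. Collagen I and III were not set apart in these cells, where Col1a1, Col1a2 and Col3a1 lay among the values of the other lineages. Wnt2 libraries also had 10 of 15 pericyte, 8 of 14 smooth muscle and 8 of 15 adventitial markers lower than the other lineages, with smooth muscle medians of 8.88 to 9.56, and 4 of 20 epithelial markers lower. Higher were 4 of 14 alveolar fibroblast markers (Itga8, Limch1, Macf1 and Mfap4), with 0 lower; the part of these cells was not tested, and that of the mouse line cannot be told apart.

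Enzymes and other proteins that process collagen were read from a list of 35, of which 32 were measured. Of these, 10 differed across the lineages by the F-test, beside 8.2% of all genes. With the Pdgfra label 4 were higher and 1 lower, beside 3.55% and 2.93% of all genes. Lox and Loxl1, lysyl oxidases that cross-link fibrils, were higher by 2.09 ± 0.3 and 1.86 ± 0.35 (adjusted p = 0.000857 and 0.00569). Adamts2, which removes the amino propeptide of procollagens I to III, and Colgalt2, a collagen galactosyltransferase, were higher by 1.68 ± 0.44 and 2.18 ± 0.39 (adjusted p = 0.0341 and 0.00386). P3h2, a prolyl 3-hydroxylase that acts on collagen IV among others, was the 1 lower (-4.09 ± 1.14, adjusted p = 0.0463), at 10.63 and 10.6 in Negative and 9.54 and 9.37 in Axin2 against 3.36 to 8.53 in the labelled libraries. As for Col4a1 and Col4a2, its 4 highest libraries in that line were those of Negative and Axin2. Lox was at 13.92 and 14.86 in Axin2:Pdgfra, 14.56 and 13.73 in Pdgfra, 12.65 and 11.42 in Axin2, 12.37 and 12.27 in Negative, and 14.76 and 14.97 in Wnt2, with no overlap between the libraries with and without the label in that line.

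Some members of the list also passed in other comparisons. Plod3, a lysyl hydroxylase, was the only one higher with the Axin2 label (1.94 ± 0.41, limma adjusted p = 0.0336) and none was lower, beside 0.501% and 1.14% of all genes. From Axin2 to Axin2:Pdgfra, Lox and Colgalt2 were higher and 0 lower, beside 0.924% and 1.38%. Against Negative, Lox was higher and P3h2 lower in Pdgfra, beside 2.03% and 0.875%. In Wnt2, Lox was higher (1.64 ± 0.34, limma adjusted p = 0.0208), 1 of 32 beside 0.719% of all genes. Loxl2 and Pxdn, the peroxidasin that cross-links collagen IV, were lower there (-1.62 ± 0.3 and -1.24 ± 0.27, limma adjusted p = 0.0124 and 0.0289), 2 of 32 beside 1.44%. In Negative, Loxl1 (-2.03 ± 0.41) and Pcolce (-1.39 ± 0.31), an enhancer of procollagen C-proteinase, were lower than in the 3 labelled lineages (limma adjusted p = 0.0115 and 0.019). These were 2 of 32, with 0 higher, beside 2.7% and 1.92% of all genes. The median difference over the 32 genes with the Pdgfra label was 0.33, beside 1.08 for the collagen chains and 0 for all genes.

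Of 12 collagen receptors listed, 11 were in the tables and 3 differed with the Pdgfra label, beside 6.48% of all genes. Mrc2, an endocytic receptor that takes up collagen fragments, was higher by 1.87 ± 0.21 (adjusted p = 9.34e-05). Its values were 14.65 and 14.64 in Axin2:Pdgfra, 14.22 and 14.52 in Pdgfra, 12.07 and 12.32 in Axin2, 13.38 and 12.78 in Negative, and 14.59 and 14.53 in Wnt2. Itga1, a collagen-binding integrin subunit, was lower (-2.92 ± 0.38, adjusted p = 0.000372), at 14.68 and 14.79 in Axin2, 14.64 and 13.5 in Negative and 9.77 to 12.66 in the other 6 libraries. Adgrg6, an adhesion receptor known to bind collagen IV, was lower by less (-0.91 ± 0.24, limma adjusted p = 0.0339). It was at 14.83 and 14.93 in Axin2, 14.39 and 13.32 in Negative, and 14.39 and 14.13 in Wnt2. Negative library 2 lay within the 13.19 to 13.72 of the libraries with the Pdgfra label. Mrc2 thus followed the order of the interstitial collagens only in part, being lowest in Axin2, and Itga1 had its 4 highest libraries where Col4a1 and Col4a2 did. Itga11, a receptor for fibrillar collagen, was lower in Negative than in the 3 labelled lineages (-4.34 ± 1.15, limma adjusted p = 0.0456). It was 1 of 11, with 0 higher, beside 2.7% and 1.92% of all genes. Its values were 3.85 and 6.18 in Negative, 6.6 and 10.27 in Pdgfra, 8.09 and 6.65 in Wnt2, and 8.8 to 10.53 in Axin2:Pdgfra and Axin2. Pdgfra library 1 and Wnt2 library 2 were thus close to Negative library 2.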

How the data were processed

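RNA-seq values of 10 libraries were used, 2 for each of 5 lineages, grouped by the labels. Each deposited table holds a log2 value per Ensembl gene, a scale inferred from the values, since the headers give only a signal. The authors' tools were STAR and limma and their build was mm9, per the submitters' processing notes; which version, counter, annotation or normalization they chose is not given in the sources used here. Every table holds the same 14854 genes, with medians of 9.1 to 9.11 and a shared top of 19.25. Depth is unknown, so no counting interval was computed.

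Symbols were matched to 14720 identifiers. Genes that reached a log2 value of 6 in 2 or more libraries (14177) were fitted in limma 3.58.1 (R 4.3.3) with a mean per lineage, no covariate and 5 residual degrees of freedom, with trended and robust eBayes moderation. Tests were two-sided, and p-values were adjusted by Benjamini-Hochberg over all genes in each comparison, at a threshold of 0.05. The method was tested on simulated data. Members past the threshold and their partner chains were named with values per library, the others by range. Overlapping genes, such as Col4a1 with Col4a2, are uncertain where reads could be split between them, since the strand setting is not given in the sources used here. Alternatives changed the filter, the moderation, low values, covariates or the libraries used. The collagen genes, classes and lists were chosen with earlier results of these data known. Promoter sequences are from RefSeq (GRCm38.p6), a build other than that of the tables, and no coordinate was transferred.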

Additional observations from a re-analysis of the deposited data

How the results depend on the processing

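Counts of collagen genes past the threshold changed by more than 1.5 times with the moderation of variances and, for 6 of the comparisons, with single libraries left out. Without trend and robust moderation they were 2 for the F-test, 3 for the Pdgfra label, 0 for the Axin2 label and 0 for Axin2:Pdgfra minus Axin2. They were 1 for Pdgfra minus Negative, 0 for Axin2 minus Negative, 1 for Wnt2 and 3 for Negative against the 3 labelled lineages. Of the 3 for the Pdgfra label, 2 (Col4a2 and Col4a3) were among the 14 of the fit reported. The cause of these changes was not tested. Axin2 minus Negative, 5 in the fit reported, was 1 with the second sequencing index as a covariate and 2 with only the libraries of those groups. Of those 2, 1 was among the 5 reported, and 0 were higher in Axin2. With 1 library left out, the counts ran from 13 to 17 for the F-test, 9 to 14 for the Pdgfra label, 0 to 5 for the Axin2 label, 0 to 5 for Axin2:Pdgfra minus Axin2, 3 to 13 for Pdgfra minus Negative, 0 to 6 for Axin2 minus Negative, 2 to 7 for Wnt2, 11 to 14 for Negative, and 0 to 0 for both Axin2:Pdgfra minus Pdgfra and the interaction; a lineage left with a single library is assumed to vary like the others. The filter on low values and raising values under 6 to 6 moved no count by more than 1.5 times. The libraries share numbers in their labels, but deviations of same-numbered libraries did not correlate (-0.06 to 0.03 in 10 pairs). With the replicate block the counts were 15 for the F-test, 14 for the Pdgfra label, 4 for the Axin2 label, 10 for Pdgfra minus Negative, 4 for Axin2 minus Negative and 14 for Negative, with 13 of the 17 F-test genes shared and, of the 14 for Negative, 12 (not Col3a1 or Col20a1); Negative library 0 is alone in its number, so that fit rests on Negative library 2. Under that block the genes called also differed in part from those reported for the Pdgfra label and for Axin2 minus Negative. Of the differences that were not called, Col23a1 in Negative against the 3 labelled lineages (-1.02) turned to 0.01 with the replicate block and 0.09 without Negative library 0 (-2.13 without Negative library 2), and Col8a1 (-0.98) to 0.63 without Negative library 2 (-2.58 without Negative library 0).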
